A study of Mus musculus with 14 samples.

Results

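Imprinted genes are read mainly from the chromosome inherited from 1 parent. The 10 genes described here are Mkrn3, Magel2, Ndn, Snrpn, Dlk1, Meg3, Peg3, Cdkn1c, Impact and Nnat, of 18193 genes with a probe set of their own in the series. They were chosen with earlier results of these data known, from the difference between Tfr1-null and control neurons, so those differences are given as a description and not as a test. All of their 40 probe sets on an Affymetrix mouse whole-genome array were taken: 34 are annotated to 1 member and 6 to both Snurf and Snrpn, which share a transcript.

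The RNA was ribosome-bound mRNA, immunoprecipitated with the RiboTag method from the dopaminergic neurons of the ventral midbrain. The mice were F2 animals of 129Sv and C57BL/6, and both genotypes carried the RiboTag allele. Tfr1-null neurons (Tfr1ΔDN) lack transferrin receptor 1, which imports iron, through a deletion aimed at dopaminergic neurons only. Controls were heterozygous for the Tfr1 allele, so they carried 1 altered copy too. The younger set, 3 weeks old, had 3 controls and 4 Tfr1-null samples, and the older set, 10 weeks old, had 4 and 3. Whether each library came from its own animal is not stated in the labels, so the standard errors measure the spread between these libraries, which may be technical.

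The labels of 2 libraries are doubtful. The library labelled Tfr1-null 3 weeks 1 has a source name that calls it control. Its signal of Tfrc, the targeted gene, was 11.18 on the log2 scale, among the controls of that age at 11.12 to 11.29 and away from the other Tfr1-null libraries at 12.77 to 12.95. The library labelled control 10 weeks 1 had a Tfrc signal of 13.09, among the Tfr1-null libraries at 13.02 to 13.31 and away from the other controls at 11.43 to 11.66. The Tfrc probe set was thus brighter in Tfr1-null libraries; its position relative to the deleted exons is unknown here, so it does not check the deletion. Differences are given for the 12 libraries without these 2 and, on 1 probe set of each member and for called genes outside the 10, also for all 14 as labelled.

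Array medians were 6.41 to 6.47 log2 units at 3 weeks and 7.36 to 7.43 at 10 weeks, so log2 levels were compared within an age, and ages only by the percentile of a probe set within its array. Xist exceeded the Y-linked gene Eif2s3y on 6 of the 7 younger arrays and on 0 of the 7 older ones, so age and sex cannot be told apart. The younger array without this pattern was control 3 weeks 2 (Xist 4.47, Eif2s3y 8.5). All Tfr1-null arrays of that age had it, so sex was not balanced between genotypes at 3 weeks. Th, tyrosine hydroxylase of the dopamine pathway, lay between the 99.6 and 99.9 percentile on every array. Markers of other cells were present as well, with median percentiles of 88.2 for oligodendrocytes, 81.9 for GABAergic neurons, 73.9 for astrocytes and 51.1 for microglia. A member's signal may therefore include RNA of other cells, and in RNA from a tissue lysate fewer cells of a type and less RNA per cell cannot be told apart.

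Imprinted genes lie in clusters, in which a methylated control region sets which parental copy is active, and many act in growth and in the brain. Snrpn, Ndn, Magel2 and Mkrn3 belong to the paternally expressed cluster lost in Prader-Willi syndrome. Dlk1, from the paternal copy, and the noncoding RNA Meg3, from the maternal copy, share another cluster. Dlk1 encodes a membrane protein related to Notch ligands and is a known product of midbrain dopaminergic neurons.

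In the RefSeq order of mouse genes (assembly GRCm38.p6), Ndn, Magel2, Mkrn3 and Peg12 follow one another on chromosome 7. The first 3 are shown because their signals moved in opposite directions. The 250 bases before their start sites, from RefSeq on GRCm38.p6, are printed 5′ to 3′ on the strand of the gene, with CpG, the dinucleotide that is methylated at imprinted regions, in capitals.

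Ndn, chr7:62348027-62348276 (+ strand): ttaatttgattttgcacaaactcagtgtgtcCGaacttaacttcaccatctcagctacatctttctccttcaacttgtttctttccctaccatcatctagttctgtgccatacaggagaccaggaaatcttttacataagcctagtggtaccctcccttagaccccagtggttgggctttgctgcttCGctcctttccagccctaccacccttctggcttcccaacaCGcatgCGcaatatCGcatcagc

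Magel2, chr7:62376729-62376978 (+ strand): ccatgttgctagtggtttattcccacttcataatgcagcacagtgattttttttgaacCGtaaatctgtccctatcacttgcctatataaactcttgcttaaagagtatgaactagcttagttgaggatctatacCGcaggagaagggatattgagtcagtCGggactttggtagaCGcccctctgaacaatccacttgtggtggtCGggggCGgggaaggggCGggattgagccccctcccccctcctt

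Mkrn3, chr7:62420154-62420403 (- strand): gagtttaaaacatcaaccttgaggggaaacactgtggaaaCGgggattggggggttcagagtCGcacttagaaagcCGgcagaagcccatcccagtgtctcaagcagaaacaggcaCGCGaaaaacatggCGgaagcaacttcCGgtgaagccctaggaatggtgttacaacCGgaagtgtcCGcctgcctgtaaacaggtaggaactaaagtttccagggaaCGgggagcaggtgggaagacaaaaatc

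These windows hold 5 CpG in Ndn, 7 in Magel2 and 10 in Mkrn3, against a median of 6 over 32851 promoters of the same length. Of all promoters, 55.6% hold at least as many as Ndn, 46.3% as many as Magel2 and 37.8% as many as Mkrn3. On either strand, the hypoxia-response core ACGTG and the ATF4 element TGATGNAAN occur in 16.6% and 3.44% of all promoters. The number of matches in the 3 printed windows was 0 for both motifs, which says only that these letters are not there. No methylation or binding was measured.

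Mkrn3 was higher in Tfr1-null neurons, at 3 weeks from a level at the floor of the array. It encodes a makorin RING-finger ubiquitin ligase known as a brake on puberty. At 3 weeks, Mkrn3 signals were 3.71, 3.46 and 3.87 log2 units in controls, 7.21, 6.78 and 7.33 in Tfr1-null libraries 2, 3 and 4, and 4.08 in the library labelled Tfr1-null 3 weeks 1. All controls were below the 25th percentile of their own array (4.33 to 4.41 at that age), a limit taken here as not above background, and so was the library of doubtful label. The other Tfr1-null libraries were far above it, with a gap of 2.91 log2 units to the highest control.

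The Mkrn3 difference at 3 weeks was 3.43 log2 units (SE 0.39, n = 3 and 3) in the 12 libraries. Since the controls were not above background, its size is not exact. With the controls set at the 25th percentile of their arrays it was 2.72 log2 units, before allowing for the spread between libraries. With all 14 libraries the difference was 2.67 (SE 0.77, n = 3 and 4), or 1.96 with only the controls set at that percentile.

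At 10 weeks, Mkrn3 was 4.11, 4.47 and 5.58 in controls 2, 3 and 4, 7.20, 5.84 and 6.66 in Tfr1-null libraries, and 6.84 in the library labelled control 10 weeks 1. Controls spread more than at 3 weeks, and control 10 weeks 4 lay only 0.26 log2 units under the lowest Tfr1-null library. The difference was 1.85 (SE 0.39, n = 3 and 3) in 12 libraries and 1.32 (SE 0.77) in 14, where the groups overlapped. However, controls 2 and 3 were below the 25th percentile of their arrays, so 1 of the 3 controls measured Mkrn3 above background. With these 2 controls set at that percentile, a limit added after seeing the data, the difference was 1.04 in 12 libraries and 0.71 in 14. The difference of 1.85 passed the threshold used below, but not without Tfr1-null 10 weeks 1 or 3 or control 10 weeks 3, where it was 1.53 to 1.80. The call was also lost in a fit of that age alone (limma adjusted p = 0.198) and with array weights (0.0769). Within the array, the median percentile of Mkrn3 over all libraries as labelled was 16.3 in controls and 55.3 in Tfr1-null neurons at 3 weeks, and 19.8 and 41.2 at 10 weeks. Mkrn3 and Magel2 each have 1 probe set, so no other probe set shows whether the signal comes from the named transcript.

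Magel2, a MAGE protein that helps an E3 ligase recycle membrane proteins, went the other way. At 3 weeks it was 8.51, 8.44 and 8.26 in controls, 7.48, 7.62 and 7.88 in Tfr1-null libraries 2 to 4, and 8.46 in the library labelled Tfr1-null 3 weeks 1. The difference was -0.74 (SE 0.13) in 12 libraries, with the groups apart, and -0.54 (SE 0.22) in 14, where they overlapped. Leaving out any 1 of the 3 controls, or Tfr1-null 2 or 3, ended its call while the difference stayed between -0.82 and -0.65. At 10 weeks Magel2 was 8.70, 8.53 and 8.68 in controls 2 to 4, 8.25, 8.38 and 8.06 in Tfr1-null libraries, and 8.03 in the library labelled control 10 weeks 1. That is a difference of -0.41 (SE 0.13) in 12 libraries, with the groups apart, and -0.26 (SE 0.22) in 14.

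Ndn (necdin), a related MAGE protein of postmitotic neurons, was among the brightest genes on the array. Of its 8 probe sets, 3 were below the 25th percentile in all libraries, and the other 5 had percentiles of 97.6 to 99.9. On probe set 1415923_at, Ndn at 3 weeks was 12.73, 12.70 and 12.65 in controls, 12.37, 12.43 and 12.37 in Tfr1-null libraries 2 to 4, and 12.56 in the library labelled Tfr1-null 3 weeks 1. All Tfr1-null libraries were below all controls, also with the doubtful library.

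At 10 weeks the same Ndn probe set read 13.88, 13.57 and 13.49 in controls 2 to 4, 13.10, 13.37 and 13.23 in Tfr1-null libraries, and 13.36 in the library labelled control 10 weeks 1. Its differences were -0.30 and -0.42 (SE 0.12 each) at 3 and 10 weeks in 12 libraries, and -0.26 and -0.35 (SE 0.12 each) in 14, where the groups overlapped at 10 weeks. Over the 8 probe sets the differences ran from -0.30 to 0.06 at 3 weeks and from -0.42 to 0.06 at 10 weeks, with 7 of 8 lower at both ages. None was called in either fit, and 1415923_at had the largest of these differences.

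Snrpn encodes a spliceosome protein, and Snurf is a short reading frame on the same RNA. Probe set 1441905_x_at, annotated to both, read 8.11, 8.00 and 7.94 in controls at 3 weeks and 7.75, 7.79, 7.88 and 7.66 in the 4 Tfr1-null libraries. At 10 weeks it read 9.09, 9.09 and 8.91 in controls 2 to 4, 8.35, 8.55 and 8.40 in Tfr1-null libraries, and 8.19 in the library labelled control 10 weeks 1. The groups were apart at both ages in 12 libraries, by -0.24 (SE 0.10) at 3 weeks and -0.60 (SE 0.10) at 10 weeks. In 14 libraries the differences were -0.25 and -0.39 (SE 0.18 each), and the groups overlapped at 10 weeks.

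This probe set, like 4 of the other 5 annotated to both genes, is of a type (_x_at or _s_at) that can bind related transcripts. Those 5 differed by -0.28 to 0.00 at 10 weeks. Probe set 1432096_at, the only one annotated to Snrpn alone, differed by -0.11 and -0.27 (SE 0.09 each) in 12 libraries and by -0.11 and -0.22 in 14. At 10 weeks in the 12 libraries, median differences were -0.31 for markers of dopaminergic neurons, 0.38 for astrocytes and 0.34 for microglia. In 14 libraries these were -0.21, 0.19 and 0.15. In the 12 libraries 1 astrocyte marker and 1 marker of GABAergic neurons were called higher. For dopaminergic neurons and microglia 0 markers were called. Medians of the other marker lists ran from -0.47 for glutamatergic neurons to 0.24 for GABAergic neurons. The part of these cell types in the lower Ndn and Snrpn signals was not tested.

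**Figure D1:**
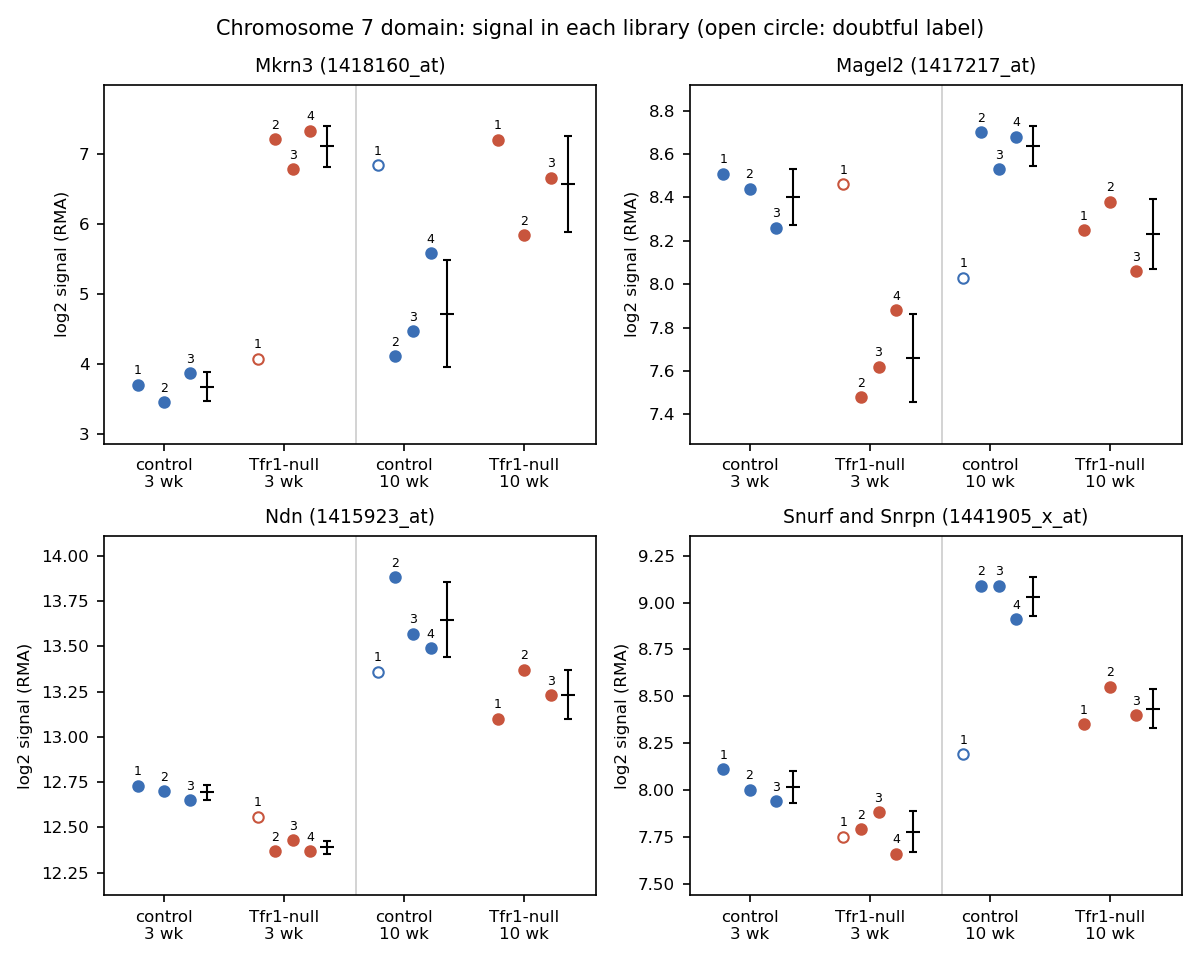
Log2 signal of Mkrn3, Magel2, Ndn and the Snurf and Snrpn probe set in each of the 14 libraries, by genotype and age; numbers are replicate numbers, open circles are the libraries of doubtful label, and black marks are mean and SD without them. Mkrn3 at 3 weeks lies at 3.46 to 3.87 in controls and at 6.78 to 7.33 in Tfr1-null libraries 2 to 4, and the open circles for Mkrn3 and Magel2 lie nearer the other genotype.

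Over all members, the fit with 12 libraries called 2 genes at 3 weeks, Mkrn3 higher and Magel2 lower. It called 2 at 10 weeks, Mkrn3 higher and Snrpn lower, the latter through the probe set shared with Snurf. A gene counted as called where at least 1 of its probe sets had a Benjamini-Hochberg adjusted p under 0.05 over all 45037 probe sets. On probe sets annotated to 1 gene only, 1.61% of all genes were called by this rule at 3 weeks and 12.4% at 10 weeks. The call of Snrpn rests on a probe set outside that count, and its own probe set, 1432096_at, was not called. Since the members were chosen on these contrasts, nothing is read from their count. With all 14 libraries as labelled, limma called 0 members in both contrasts, against 0% and 0.803% of all genes. At 3 weeks that fit called 0 of 45037 probe sets, with 1630 at an unadjusted p under 0.05.

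By a cruder measure, the groups did not overlap on 10 of the 40 member probe sets at 3 weeks and on 11 at 10 weeks in 12 libraries, against 20.1% and 18.8% of all probe sets. With all 14 libraries these were 6 and 3, against 6.76% and 8.66%. The difference between the ages was called in 0 members, against 0.291% of genes in 12 libraries and 0% in 14, where 3098 probe sets had an unadjusted p under 0.05 in limma.

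**Figure D2:**
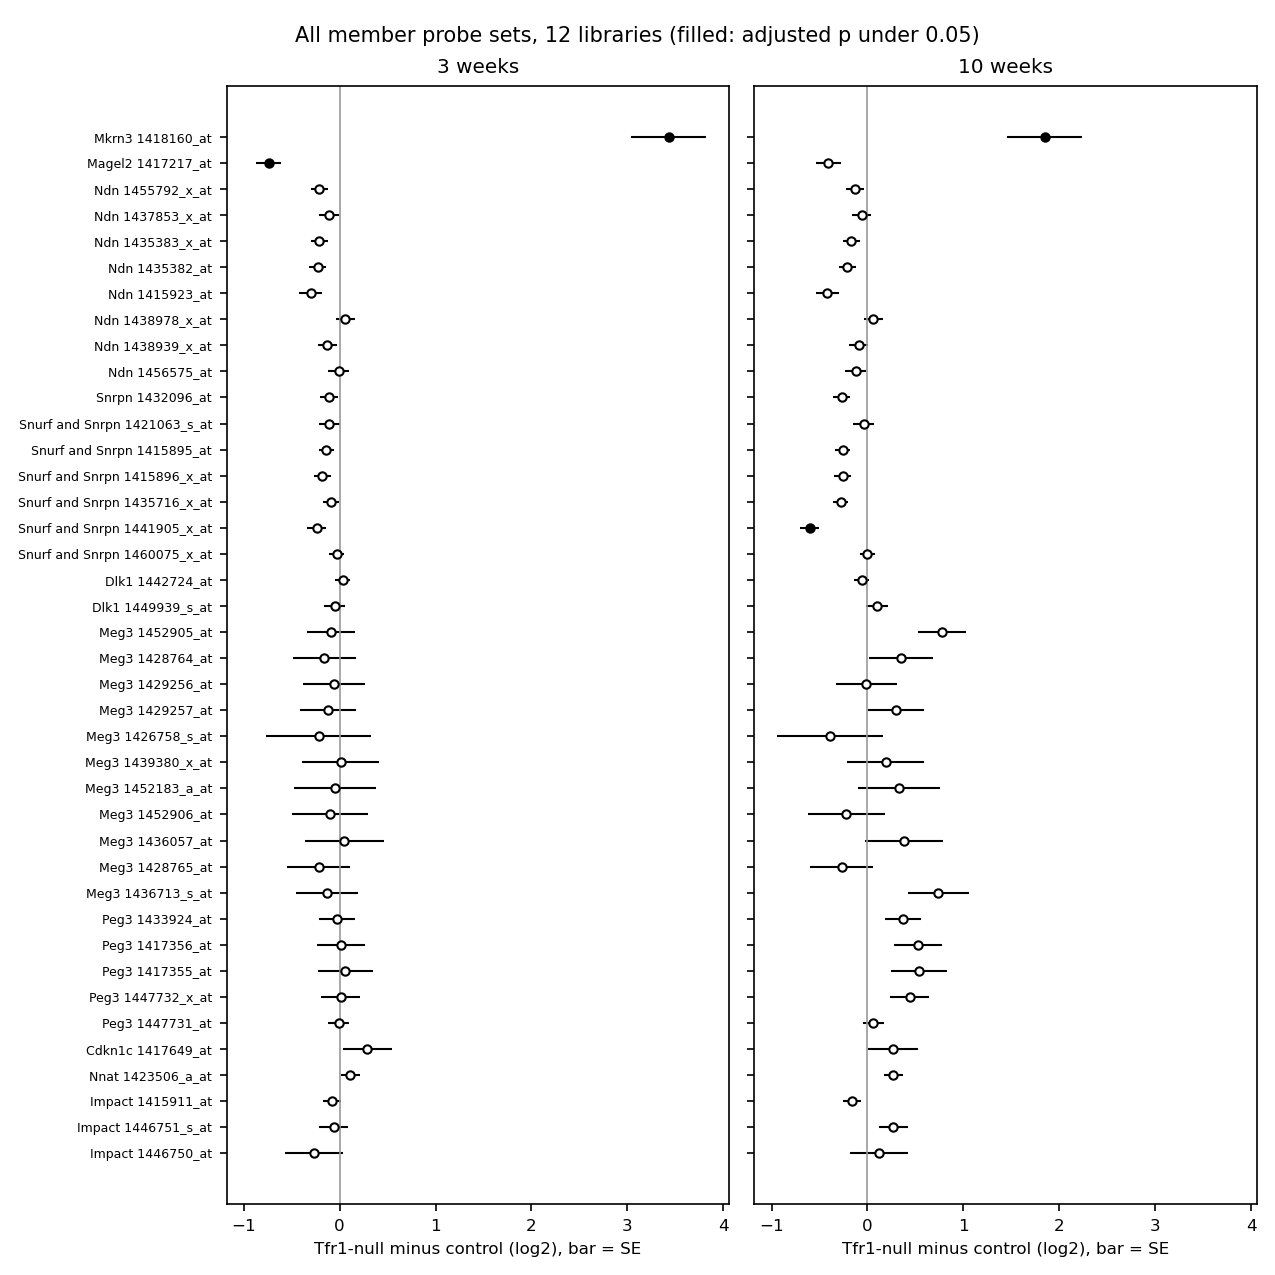
Difference in log2 signal, Tfr1-null minus control, with its standard error for each of the 40 member probe sets at 3 and at 10 weeks in 12 libraries; filled points were called. Mkrn3 stands at 3.43 and 1.85, while all other probe sets lie between -0.74 and 0.78.

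Dlk1 stood at the top of the array in all libraries. On probe set 1442724_at it was 13.96, 13.99 and 13.99 in controls at 3 weeks and 13.99, 14.00, 14.01 and 14.03 in Tfr1-null libraries. At 10 weeks it was 14.66, 14.80, 14.74 and 14.79 in controls and 14.64, 14.74 and 14.77 in Tfr1-null libraries. The differences in 12 libraries were 0.03 and -0.06 (SE 0.08 each), which are smaller than their standard errors, and in 14 libraries 0.03 and -0.03 (SE 0.07 each).

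The other Dlk1 probe set, 1449939_s_at, differed by -0.05 and 0.10, and by -0.04 and 0.10 in 14 libraries. Both lay between the 99.7 and 100 percentile, where the array leaves little room to show an increase. The dopaminergic markers, by comparison, had median differences of -0.16 at 3 weeks and -0.31 at 10 weeks in 12 libraries. In 14 libraries these were -0.13 and -0.21, and 0 of these markers were called in either fit.

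Some genes beside Dlk1 on chromosome 12 that were listed as expressed from both copies differed. Of 10 measured, 0 were higher and 2 lower at 3 weeks, and 1 was higher and 2 lower at 10 weeks. Over all genes at 1 probe set each, 0.434% were called higher and 0.879% lower at 3 weeks, and 3.64% and 5.1% at 10 weeks. The median difference was 0.01 and 0.05, against 0.01 and -0.01 over all genes.

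Wdr25, a WD-repeat gene near Dlk1 in the RefSeq order, was 8.81, 8.95 and 9.01 in controls at 3 weeks and 7.32, 7.53 and 7.50 in Tfr1-null libraries 2 to 4. It fell by 1.47 log2 units at 3 weeks (SE 0.21, limma adjusted p = 0.00716) and by 1.74 at 10 weeks (SE 0.21, limma adjusted p = 0.00109).

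Degs2, a sphingolipid desaturase and hydroxylase, fell by 0.89 at 3 weeks (SE 0.13, limma adjusted p = 0.00899) and by 0.62 at 10 weeks (SE 0.13, limma adjusted p = 0.0184). The call of Degs2 was lost at 3 weeks without control 2 or 3 and at 10 weeks without control 3 or Tfr1-null 3, with adjusted p of 0.0511 to 0.0542. Wars, the tryptophanyl-tRNA synthetase, rose by 0.76 at 10 weeks (SE 0.17, limma adjusted p = 0.0267), a call lost without Tfr1-null 1 or 2 or control 2 or 3 of that age (0.0526 to 0.079). The library labelled Tfr1-null 3 weeks 1 had 8.69 for Wdr25 and 7.43 for Degs2, and the library labelled control 10 weeks 1 had 8.56 and 7.76. In 14 libraries none of these 3 genes was called: Wdr25 differed by -1.16 and -1.38 (SE 0.39 each), Degs2 by -0.60 and -0.51 (SE 0.26 each), and Wars by 0.64 at 10 weeks (SE 0.17). Of the 10 measured neighbours of the Snrpn cluster, 0 were called at either age, with median differences of 0.08 and 0.19.

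**Figure D3:**
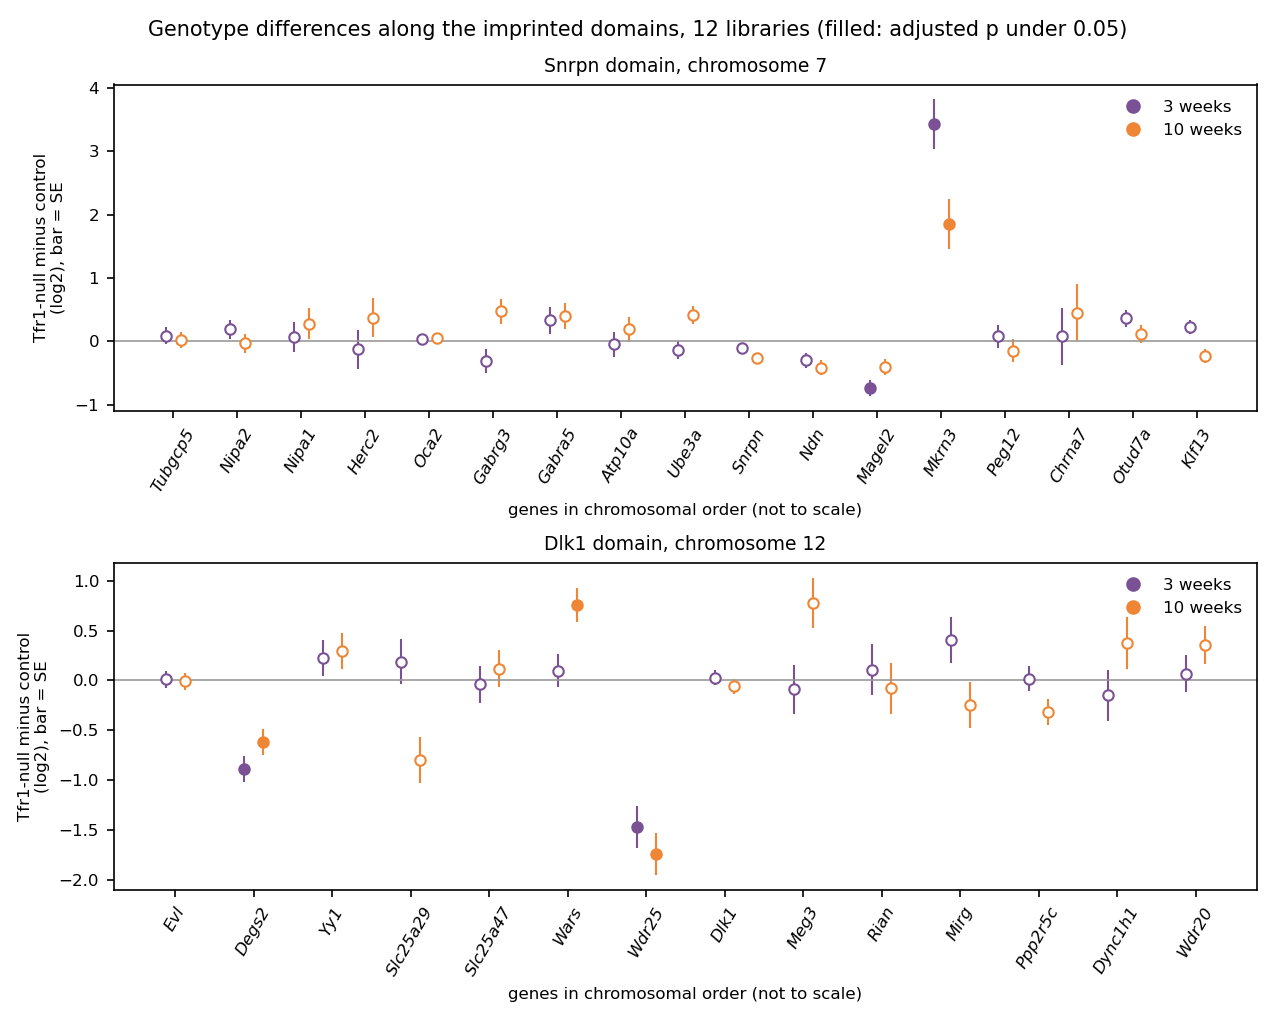
Difference in log2 signal, Tfr1-null minus control, with its standard error for genes of the Snrpn cluster on chromosome 7 and of the Dlk1 cluster on chromosome 12. Genes stand in chromosomal order and not to scale, in 12 libraries, and filled points were called. Ndn is drawn on probe set 1415923_at, which had its largest differences. On its brightest probe set, 1455792_x_at, they were -0.21 at 3 weeks and -0.13 at 10 weeks. At 3 weeks Mkrn3 stands at 3.43 between Magel2 at -0.74 and Peg12 at 0.08, and Dlk1 stays near 0 beside Wdr25 at -1.47 and -1.74. Peg12 was below the 25th percentile of the array in all 14 libraries, so its value does not show whether it differed.

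Meg3, the maternally expressed noncoding RNA next to Dlk1, had 11 probe sets and 0 called. At 3 weeks their differences ran from -0.22 to 0.05 in 12 libraries. At 10 weeks they ran from -0.39 to 0.78, with 7 of 11 higher, so probe sets of this gene disagreed in sign. On probe set 1452905_at, Meg3 at 10 weeks was 12.66, 11.89 and 11.85 in controls 2 to 4, 12.94, 12.60 and 13.22 in Tfr1-null libraries, and 12.96 in the library labelled control 10 weeks 1. The difference was 0.78 (SE 0.25) in 12 libraries and 0.58 (SE 0.28) in 14, and the groups overlapped in both sets. In the 12 libraries it became 1.05 without control 10 weeks 2.

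That control also carried the highest Meg3 reading of all libraries on probe set 1426758_s_at, 13.13 against 11.17 and 10.44 in controls 3 and 4. Rian and Mirg, noncoding RNAs of the same cluster, were not called. They differed by 0.11 and 0.41 at 3 weeks and by -0.08 and -0.25 at 10 weeks. Whether the signal of these noncoding RNAs and of Meg3 came from ribosome-bound RNA was not tested.

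Peg3 encodes a zinc-finger protein linked to maternal behaviour and cell death. Of its 5 probe sets, 2 were below the 25th percentile in all libraries. On probe set 1417356_at, Peg3 at 3 weeks was 12.93, 12.95 and 12.73 in controls and 12.98, 12.93, 12.77 and 12.95 in Tfr1-null libraries, so the groups overlapped. At 10 weeks it was 13.59, 13.61, 12.46 and 13.47 in controls and 13.64, 13.88 and 13.62 in Tfr1-null libraries. Control 10 weeks 3 stood apart, and the difference of 0.53 (SE 0.25) in 12 libraries became 0.17 without it. In 14 libraries the difference was 0.43 (SE 0.23).

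Nnat, neuronatin, a small protein of the endoplasmic reticulum, was 12.94, 13.02 and 13.03 in controls at 3 weeks and 12.99, 13.03, 13.19 and 13.10 in Tfr1-null libraries. At 10 weeks it was 13.55, 13.59 and 13.81 in controls 2 to 4, 13.84, 13.97 and 13.96 in Tfr1-null libraries, and 13.96 in the library labelled control 10 weeks 1. The difference of 0.27 (SE 0.10) in 12 libraries was not called, and the groups were apart by 0.03. In 14 libraries it was 0.20 (SE 0.11), and the groups overlapped.

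Cdkn1c, the cyclin-dependent kinase inhibitor p57, was 5.80, 5.40 and 5.56 in controls at 3 weeks and 5.97, 5.95, 5.73 and 5.95 in Tfr1-null libraries. At 10 weeks it was 6.31, 5.40, 6.34 and 6.56 in controls and 6.18, 6.34 and 6.58 in Tfr1-null libraries, with control 10 weeks 2 low. Its differences were 0.29 and 0.27 (SE 0.26 each) in 12 libraries and 0.31 and 0.21 (SE 0.22 each) in 14. Without control 10 weeks 2 the value at 10 weeks was -0.08, so its sign rests on that library. Impact, which restrains the amino acid sensor GCN2, differed by -0.08 and -0.16 (SE 0.09 each) on its brightest probe set, 1415911_at, and by -0.06 and -0.16 (SE 0.08 each) in 14 libraries. At 10 weeks its 3 probe sets ran from -0.16 to 0.27, and 0 were called.

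**Figure D4:**
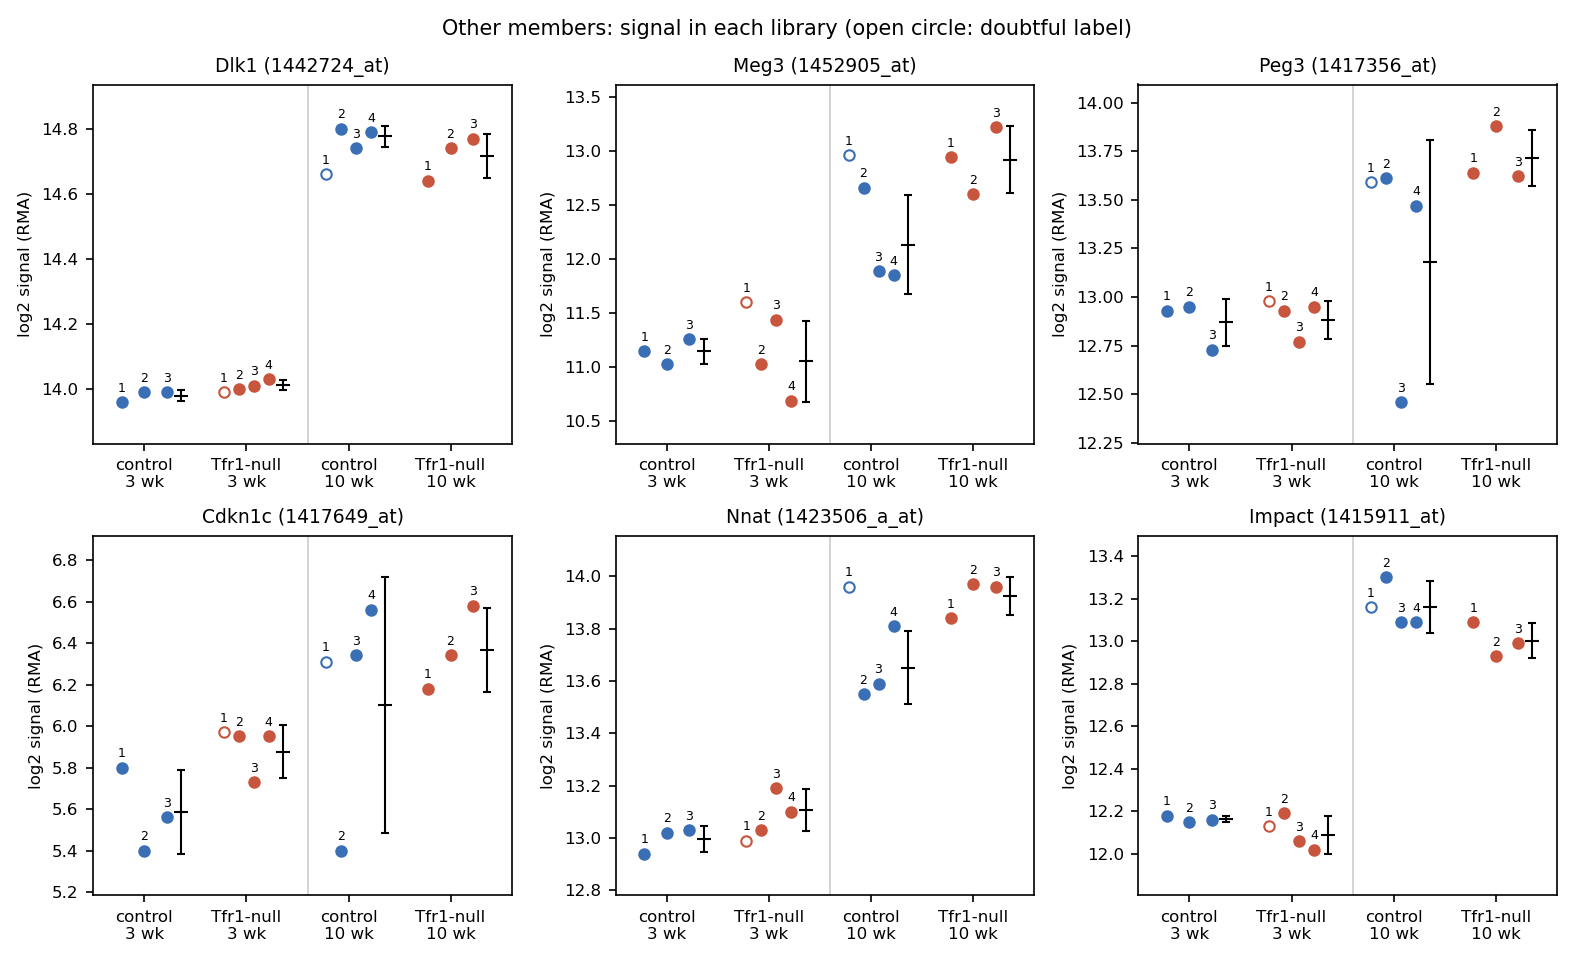
Log2 signal of Dlk1, Meg3, Peg3, Cdkn1c, Nnat and Impact on 1 probe set each in the 14 libraries; numbers are replicate numbers, open circles are the libraries of doubtful label, and black marks are mean and SD without them. Dlk1 stays within 13.96 to 14.03 at 3 weeks, and Peg3 is low in control 10 weeks 3 at 12.46.

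Imprinted genes outside the 10 were near the rest of the array. Of 60 listed, 48 were measured. In 12 libraries 0 were higher and 1 lower at 3 weeks, and 0 were higher and 2 lower at 10 weeks, or 2.1% and 4.2% called, against the shares of all genes given above for the neighbours of Dlk1. Their median difference was 0.01 and -0.07, and the median of its absolute size 0.11 and 0.17, against 0.12 and 0.20 over all genes. With all 14 libraries limma called 0 of them.

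Asb4, maternally expressed and part of a ubiquitin ligase, was 9.79, 9.82 and 9.84 in controls at 3 weeks, 8.81, 8.42 and 8.45 in Tfr1-null libraries 2 to 4, and 9.74 in the library labelled Tfr1-null 3 weeks 1. It fell by 1.26 (SE 0.21, limma adjusted p = 0.0201) in 12 libraries and differed by -0.96 (SE 0.30) in 14. Without any 1 of the 3 controls, or Tfr1-null 3 or 4, the adjusted p was 0.0872 to 0.104, at differences of -1.27 to -1.19. Peg10, a paternally expressed gene derived from a retrotransposon in the cluster that holds Asb4, differed by 0.77 at 3 weeks (SE 0.23) and was not called.

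Slc38a4, an amino acid transporter, was 6.79, 7.16 and 7.07 in controls 2 to 4 at 10 weeks and 6.29, 5.64 and 5.59 in Tfr1-null libraries. It fell by 1.17 (SE 0.18, limma adjusted p = 0.00493) in 12 libraries and differed by -0.99 (SE 0.23) in 14. Mcts2, a retrogene closely similar to Mcts1, fell by 0.64 at 10 weeks (SE 0.11, limma adjusted p = 0.00642), and differed by -0.53 (SE 0.13) in 14 libraries. Its probe set may also bind Mcts1. The growth factor Igf2 differed by 1.62 at 10 weeks (SE 0.53) with overlapping groups, and Ube3a, the ubiquitin ligase of the Snrpn cluster, by 0.42 (SE 0.14); neither was called.

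**Figure D5:**
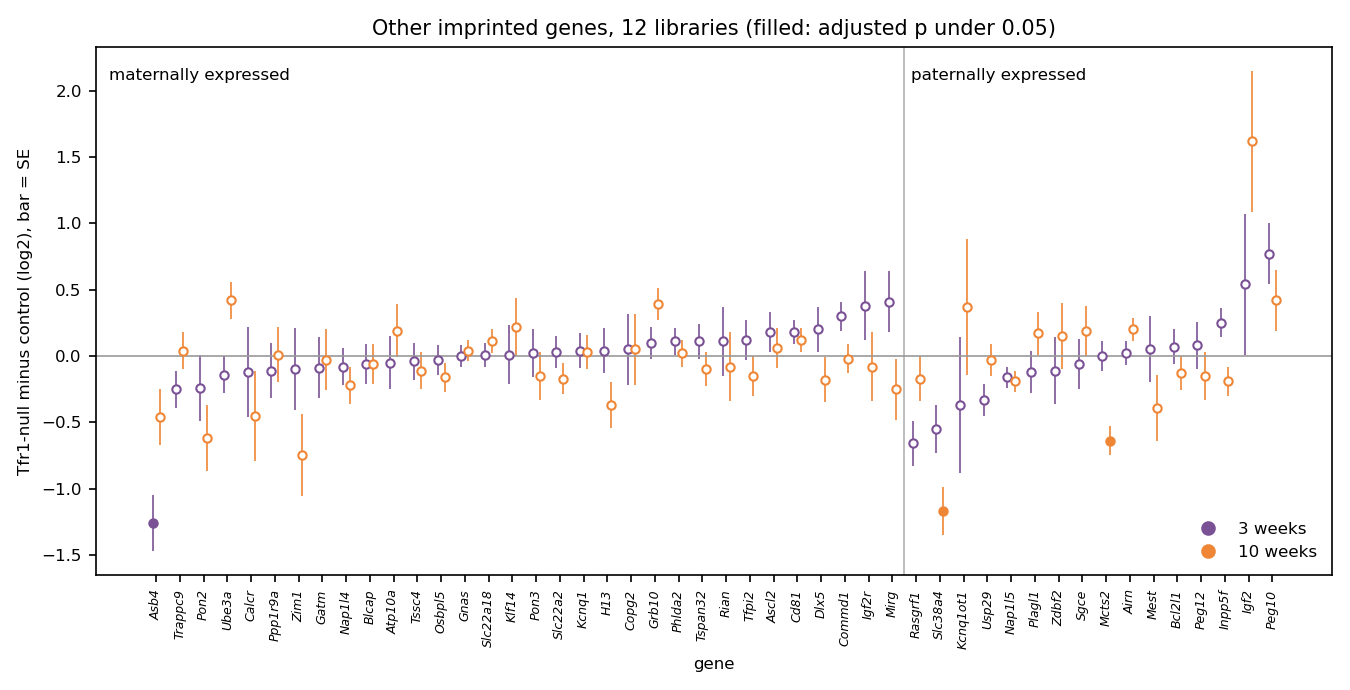
Difference in log2 signal, Tfr1-null minus control, with its standard error for the 48 other imprinted genes at 3 and 10 weeks in 12 libraries. Genes are split by the parental copy they were listed under from general knowledge. Which copy was expressed in these neurons was not measured. Filled points were called. Asb4 at -1.26, Slc38a4 at -1.17 and Mcts2 at -0.64 are the called genes.

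Partner genes of the members were counted from lists in the same fit with 12 libraries; with all 14 libraries limma called 0 genes of every list at either age. The shares to read them against are those of all genes, 0.434% higher and 0.879% lower at 3 weeks and 3.64% higher and 5.1% lower at 10 weeks, with medians of 0.01 and -0.01. The list of GCN2, which Impact restrains, and its targets had 8 of 18 measured genes higher at 3 weeks and 10 of 18 at 10 weeks, with 0 lower. Whether GCN2 acted on these targets was not tested. The median difference of the list was 0.75 and 0.72 in 12 libraries, and 0.59 and 0.55 in 14. The stress-induced transcription factor Atf3 rose by 4.69 (SE 0.29) at 3 weeks and 7.20 (SE 0.29) at 10 weeks, with limma adjusted p of 7.2e-05 and 1.0e-06, and differed by 3.59 and 5.42 (SE 1.58 each) in 14 libraries. Ddit3 rose by 1.59 and 1.88 and the serine synthesis enzyme Psat1 by 1.45 and 1.88 (in 14 libraries 1.18 and 1.38 for Ddit3, and 1.13 and 1.39 for Psat1), while the kinase GCN2 itself (Eif2ak4) differed by -0.06 and 0.10.

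Among 15 measured genes listed with the MAGE proteins and their ligase partners, 1 was lower at each age and the medians were -0.01 and -0.06. Nothing about a list is read from a single call, here and for the lists that follow. The called gene was Ldoc1, a retrotransposon-derived gene, which fell by 2.65 and 2.89 (SE 0.42 each, limma adjusted p = 0.0130 and 0.00315). In 14 libraries it differed by -1.92 and -2.17 (SE 0.84 each). At 3 weeks its call was lost without any 1 of the 3 controls, at adjusted p of 0.0507 to 0.0727. Trim27 and Usp7, partners of Magel2, differed by -0.21 and 0.07 at 3 weeks and were not called.

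Of 7 measured makorins and partners of Mkrn3, 1 was lower at 3 weeks and 0 at 10 weeks. This was Nptx1, a neuronal pentraxin, which fell by 0.78 (SE 0.14, limma adjusted p = 0.0287), a call lost without any 1 of the 6 libraries of that age, at 0.0538 to 0.158, and it differed by -0.60 (SE 0.19) in 14 libraries. The related makorins Mkrn1 and Mkrn2 differed by 0.03 and 0.09 at 3 weeks and 0.30 and 0.07 at 10 weeks and were not called. Of 16 Notch receptors, ligands and targets, 0 were called at 3 weeks and 1 at 10 weeks, with medians of -0.04 and -0.03. Notch1 rose by 0.43 (SE 0.12, limma adjusted p = 0.0496), a call lost without any 1 of the 12 libraries other than Tfr1-null 10 weeks 2, at 0.0669 to 0.107, and it differed by 0.41 (SE 0.13) in 14 libraries.

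Of 16 cyclin-dependent kinase inhibitors and partners of Cdkn1c, 0 were called at 3 weeks and 1 at 10 weeks, with medians of 0.15 and 0.00. Cyclin D2 (Ccnd2) rose by 1.02 at 10 weeks (SE 0.21, limma adjusted p = 0.0167), which became 0.0568 without Tfr1-null 10 weeks 3, and differed by 0.98 (SE 0.19) in 14 libraries. Atp2a3, a calcium pump of the endoplasmic reticulum, was the called gene of 7 partners of Nnat, and it fell by 3.69 and 2.70 (SE 0.31 each, limma adjusted p = 0.000305 and 0.000822). In 14 libraries Atp2a3 differed by -2.72 and -2.22 (SE 0.85 each). Of 5 measured partners of Peg3, 0 were called at either age. Among 14 transcription factors of dopaminergic identity, 0 were called at 3 weeks and 1 lower at 10 weeks, with medians of -0.16 and -0.26. Foxa1, a forkhead factor that maintains these neurons, fell by 0.86 at 10 weeks (SE 0.09, limma adjusted p = 0.00049), and differed by -0.68 (SE 0.16) in 14 libraries.

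The genes whose signal followed Mkrn3 most closely over the 12 libraries, after centring each age, were Psph and Mthfd2 (r = 0.96 each), and Ero1a, Rbpms and Slc35g1 (r = 0.944 each). Psph makes serine and Mthfd2 is a folate enzyme of mitochondria. Libraries of each genotype share their group's level, so these values describe likeness over 12 points in 4 groups. Of the other members, Ndn had r = -0.914 and Magel2 r = -0.892 with Mkrn3.

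For Dlk1, whose differences were near 0, the 5 highest were Tnrc18 (r = 0.935), Il10ra, St8sia2, Pim2 and Gin1 (r = 0.899). The 5 lowest were Ets1 (r = -0.921), Slc31a2, Sobp, Fam118b and Nae1 (r = -0.898). Dlk1 varied over a narrow range, so its likeness rests on small differences. Genes named for Mkrn3 and Dlk1 are the extremes of a search over many genes with few libraries. Such a search can give high r without a link, and none is read from them.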

How the data were processed

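Values were log2 signals on Affymetrix mouse arrays, which the authors deposited after robust multi-array averaging (RMA) in Partek 6.5, per the submitters' processing notes. Per the labels' protocols, 50 ng of RNA per library was amplified with the NuGEN Ovation V2 kit. No raw scans were used. RMA sets all arrays of a run to like distributions, and the 2 ages differ in scale by about a unit, so levels were set side by side within an age.

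Of 45101 probe sets, 64 controls were left out, and 45037 were fitted with limma 3.58.1 (lmFit, eBayes, R 4.3.3) with 4 group means and a shared spread; adjustment was Benjamini-Hochberg over all of them, with a threshold of 0.05. Dim probe sets were kept. The platform table gave 1 gene for 34945 probe sets, several for 932 and none for 9160. For list genes and likeness, the brightest probe set on average was used. The number of arrays limits the precision.

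The members, lists and the 2 libraries left out were chosen with earlier results of these data known. Named genes were all members and, of each list, up to 4 called per contrast by smallest p, or 2 if none was called; other names, and the probe sets of Ndn, Snurf and Snrpn, and Peg3 given by library (smallest p at 10 weeks among those above the 25th percentile throughout), were chosen after their values were seen. For likeness the 5 highest genes for Mkrn3, and the 5 highest and 5 lowest for Dlk1, were named. Clones and predicted genes were passed over.

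The fit with 12 libraries was tested on simulated data over 45037 probe sets. At 3 weeks it recovered 8% of changes of 0.5 log2 units, 54% of changes of 1 and 92% of changes of 2. At 10 weeks these shares were 12%, 60% and 90%. A gene that was not called may therefore still differ by a small amount. Alternatives were 1 probe set per gene, dim probe sets left out, each age alone, median centring, quantile normalization, array weights, a replicate block, a variance trend, and leaving out each library.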

Additional observations from a re-analysis of the deposited data

Results flagged for a closer look

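Of 80 sets of 4 libraries tested, 9 had a library far from the other 3 of its group. The measure was its gap to the nearest library over the group's range (critical value for 4 libraries). Chance gives about 5% for independent sets. Probe sets of the same gene are not independent, so no excess is read from this count. The library labelled Tfr1-null 3 weeks 1 stood out for Mkrn3 (log2 signal 4.08, ratio 0.831) and for Ndn on probe set 1435383_x_at (13.07, ratio 0.841). The library labelled control 10 weeks 1 stood out on Snurf and Snrpn probe sets 1415895_at (14.19, ratio 0.954) and 1415896_x_at (14.13, ratio 0.951). These are the 2 libraries of doubtful label.

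Control 10 weeks 3 was low for Peg3 on 1417356_at (12.46, ratio 0.875) and 1417355_at (11.76, ratio 0.863). Tfr1-null 3 weeks 2 was low for Dlk1 on 1449939_s_at (13.83, ratio 0.848), and Tfr1-null 3 weeks 3 was low for Cdkn1c (5.73, ratio 0.912). Control 10 weeks 4 was low for Ndn on 1438978_x_at (3.22, ratio 1), a probe set below the 25th percentile in all libraries.

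The genotype difference of Foxa1 differed between the ages by -0.81 (10 minus 3 weeks, 12 libraries, limma adjusted p = 0.0472). Leaving out any 1 of the 12 libraries gave adjusted p of 0.056 to 0.182.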

How the results depend on the processing

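In the contrast and on the probe set in which it was called, no difference of a gene named here changed sign under any alternative run. In 12 libraries the 2 member genes called at 3 weeks were both called under 1 probe set per gene, dim probe sets left out, that age alone, median centring, quantile normalization, array weights (which added Ndn) and a variance trend. Leaving out each library gave 1 to 2, with Mkrn3 called each time. The 2 called at 10 weeks became 1 with 1 probe set per gene, 0 with that age alone, 0 with array weights and 4 with a variance trend (Mkrn3, Ndn, Nnat and Snrpn), 3 with dim probe sets left out (Ndn added), and 1 to 3 when each library was left out (Ndn added without Tfr1-null 10 weeks 2 or control 10 weeks 4, Meg3 without control 10 weeks 2). With 14 libraries, 0 members were called at 10 weeks, and 0 to 1 when each library was left out (Snrpn, without control 10 weeks 1).

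Alternatives for genes that are no members were added after seeing the data. Of the other imprinted genes, the 1 called at 3 weeks in 12 libraries became 2 with that age alone, 4 with array weights, and 0 to 1 when each library was left out. The 2 called at 10 weeks became 0 with that age alone, 1 with array weights and 4 with a variance trend. With 14 libraries the 0 called at 10 weeks became 0 to 2 when each library was left out, with 2 without control 10 weeks 1.

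Replicate numbers did not pair the samples: deviations of same-numbered libraries correlated at -0.087 to 0.199 in 12 libraries. With the replicate block, members called in 12 libraries were 0 at 3 weeks and 0 at 10 weeks, and other imprinted genes 0 and 0. That block has a term for each replicate number at each age, and some numbers occur in a single genotype. It thus leaves little from which to estimate the spread. Over all probe sets, alternatives called 0 to 1825 at 3 weeks (main 359) and 4 to 3518 at 10 weeks (main 3045) in 12 libraries; with 14 libraries they called 0 to 30 (main 0) and 0 to 2990 (main 170). The cause of these changes was not tested. Probe sets near the array's limits, Dlk1 at the top and Mkrn3 controls at the bottom, bound what could be measured.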
